A study of Rattus norvegicus with 12 samples.

Results

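Cell cycle and mitosis genes were followed in the kidney of lean and obese Zucker rats with and without rosiglitazone, a drug of the thiazolidinedione class that activates the nuclear receptor PPARγ. The set was a list of 40 gene symbols: cyclins and their kinases, genes of DNA replication and nucleotide supply, genes of mitosis, and brakes on the cycle together with the regulator E2f1. For every symbol all annotated probe sets of the array were collected, and the probe set with the highest mean signal stood for the gene. Of the 40 genes, 39 were measured, with 53 probe sets in all, out of 14217 genes named by a probe set of 1 symbol. Rrm2, the small subunit of ribonucleotide reductase, was represented only by 2 probe sets that also carry another symbol, so it is given no value. No gene was left out for low signal. A probe set was called dim when its mean over the 12 arrays fell under the 40th percentile of all probe sets, and 9 of the 39 genes (23.1%) were dim, against the 40% that this limit sets for all probe sets. Mki67, with a mean of 7.322 on the scale of log2(signal + 16), stood just above that limit of 7.321, and Aurkb, with 7.235, just below it.

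Total RNA of kidney tissue from 12 male rats was hybridised to 12 arrays, 1 rat each, in 4 groups of 3. These were obese rats whose ground chow held rosiglitazone (3 mg per kg of body weight), lean rats on that diet, obese rats on plain chow (control diet), and lean rats on plain chow, all for 12 weeks. The submitters note the animals as a diabetes model, and the labels give neither the allele that sets obese apart from lean nor the rats' age. Obese Zucker rats are known for a defect of the leptin receptor. Whole tissue was used, so fewer cells of a type and less RNA per cell cannot be told apart in any value below.

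A dividing cell copies its DNA and then separates the copies. Cyclins switch on cyclin-dependent kinases in sequence: the D cyclins with Cdk4 commit the cell, cyclin E with Cdk2 starts replication, and cyclins A and B with Cdk1 drive mitosis. Many genes needed late in the cycle are transcribed mainly in dividing cells, under the DREAM and B-Myb complexes at CHR elements and the factor NF-Y at CCAAT elements of their promoters, while many replication genes carry E2F sites. In the adult kidney few cells divide, and tubule cells re-enter the cycle mainly after damage. Cyclin G1 and p21, the product of Cdkn1a, are known as targets of p53 and respond to stress as well as to division.

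Promoter windows from 250 bases before to 50 bases after the annotated start were taken from RefSeq (GRCr8), which held 32 of the 39 genes. They are shown for the 3 genes that passed the test in any comparison (Ccng1, Cdk4 and Mcm7) and for Top2a, a mitosis gene, and Cdk1, the mitotic kinase, both chosen after their values were seen. The sequences run 5′ to 3′ in the direction of the gene. Capitals mark matches, on either strand, to CCAAT, to the CHR core TTTGAA, and to the E2F-type motifs TTTCCCGC and TTTGGCGC.
Ccng1 promoter, GRCr8 chr10:25684827-25685126, minus strand: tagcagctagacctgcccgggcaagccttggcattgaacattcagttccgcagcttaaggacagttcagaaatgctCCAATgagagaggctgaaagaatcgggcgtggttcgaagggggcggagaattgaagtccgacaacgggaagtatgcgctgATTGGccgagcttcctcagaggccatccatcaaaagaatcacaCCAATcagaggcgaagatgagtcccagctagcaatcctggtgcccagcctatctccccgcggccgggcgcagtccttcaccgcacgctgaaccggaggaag
Cdk4 promoter, GRCr8 chr7:64771203-64771502, plus strand: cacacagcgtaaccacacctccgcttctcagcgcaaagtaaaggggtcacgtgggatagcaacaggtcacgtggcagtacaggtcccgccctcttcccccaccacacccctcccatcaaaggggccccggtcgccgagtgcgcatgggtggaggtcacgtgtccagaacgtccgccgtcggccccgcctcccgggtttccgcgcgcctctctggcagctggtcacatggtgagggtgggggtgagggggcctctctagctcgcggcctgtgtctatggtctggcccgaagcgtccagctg
Mcm7 promoter, GRCr8 chr12:22163129-22163428, minus strand: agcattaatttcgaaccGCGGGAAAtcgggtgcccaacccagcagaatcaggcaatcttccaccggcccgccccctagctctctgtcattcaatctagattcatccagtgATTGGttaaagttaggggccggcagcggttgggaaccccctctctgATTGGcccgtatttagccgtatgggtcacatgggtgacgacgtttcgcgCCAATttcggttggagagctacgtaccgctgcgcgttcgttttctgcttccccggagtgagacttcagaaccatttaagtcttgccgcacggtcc
Top2a promoter, GRCr8 chr10:84473044-84473343, minus strand: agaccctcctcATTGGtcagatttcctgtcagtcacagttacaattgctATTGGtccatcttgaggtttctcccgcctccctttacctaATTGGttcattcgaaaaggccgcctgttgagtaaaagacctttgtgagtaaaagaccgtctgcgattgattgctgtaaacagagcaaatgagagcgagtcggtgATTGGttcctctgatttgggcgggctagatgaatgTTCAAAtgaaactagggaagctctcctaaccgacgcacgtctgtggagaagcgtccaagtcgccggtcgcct
Cdk1 promoter, GRCr8 chr20:19265043-19265342, plus strand: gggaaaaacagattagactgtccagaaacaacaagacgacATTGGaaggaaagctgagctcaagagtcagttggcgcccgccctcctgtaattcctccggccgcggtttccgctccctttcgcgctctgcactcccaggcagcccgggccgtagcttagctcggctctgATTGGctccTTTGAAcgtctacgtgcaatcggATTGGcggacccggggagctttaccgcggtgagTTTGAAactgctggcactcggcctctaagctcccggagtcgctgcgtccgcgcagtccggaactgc

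The window of Top2a held TTTGAA on the opposite strand, beginning 22 bases before the start, and 4 matches to CCAAT. The Cdk1 window held TTTGAA beginning 72 and 16 bases before the start and 3 matches to CCAAT. Ccng1 held 3 matches to CCAAT, beginning 174, 94 and 51 bases before the start, and none to the other motifs. Mcm7 held TTTCCCGC on the opposite strand, beginning 233 bases before the start, besides 3 matches to CCAAT, and Cdk4 held none of the 4. Across the set CCAAT was found in 23 of 32 windows (71.9%), against 37.7% of 27457 windows of the same length, and TTTGAA in 12 of 32 (37.5%), against 18.1%. The E2F-type motifs were found in 3 windows each, TTTCCCGC in Mcm3, Mcm5 and Mcm7 (1.03% of all windows) and TTTGGCGC in Tyms, Mcm5 and Mcm6 (0.521% of all windows). Matches to different motifs overlapped once among the 32 windows. A match is a string of letters and was not tested for binding.

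The deposited signals had trimmed means between 500.12 and 500.15 on all 12 arrays and medians between 203.98 and 238.63. The ratio of 3′ to 5′ Gapdh probe sets, a sign of RNA integrity, ran from 1.07 to 1.32. Signals of 27 control probe sets for Bacillus genes, which match no rat RNA, had a median of 10.3 and reached 124. Some array values of Top2a, Mki67 and Cdk1, among them values of lean rats on control diet, lie within that range. The size of the differences of these genes is therefore uncertain. The cre spike-in, a hybridisation control, split the arrays into 5 with a higher and 7 with a lower signal, and obese rats on rosiglitazone had no array in the higher class. One array stood apart for these genes: the third array of obese rats on rosiglitazone was the highest of its group for 31 of 39 genes, with a median of 0.235 log2 above its group's mean, against 0.0246 over all probe sets. With 3 arrays a group, precision is limited by the number of arrays.

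**Figure D1:**
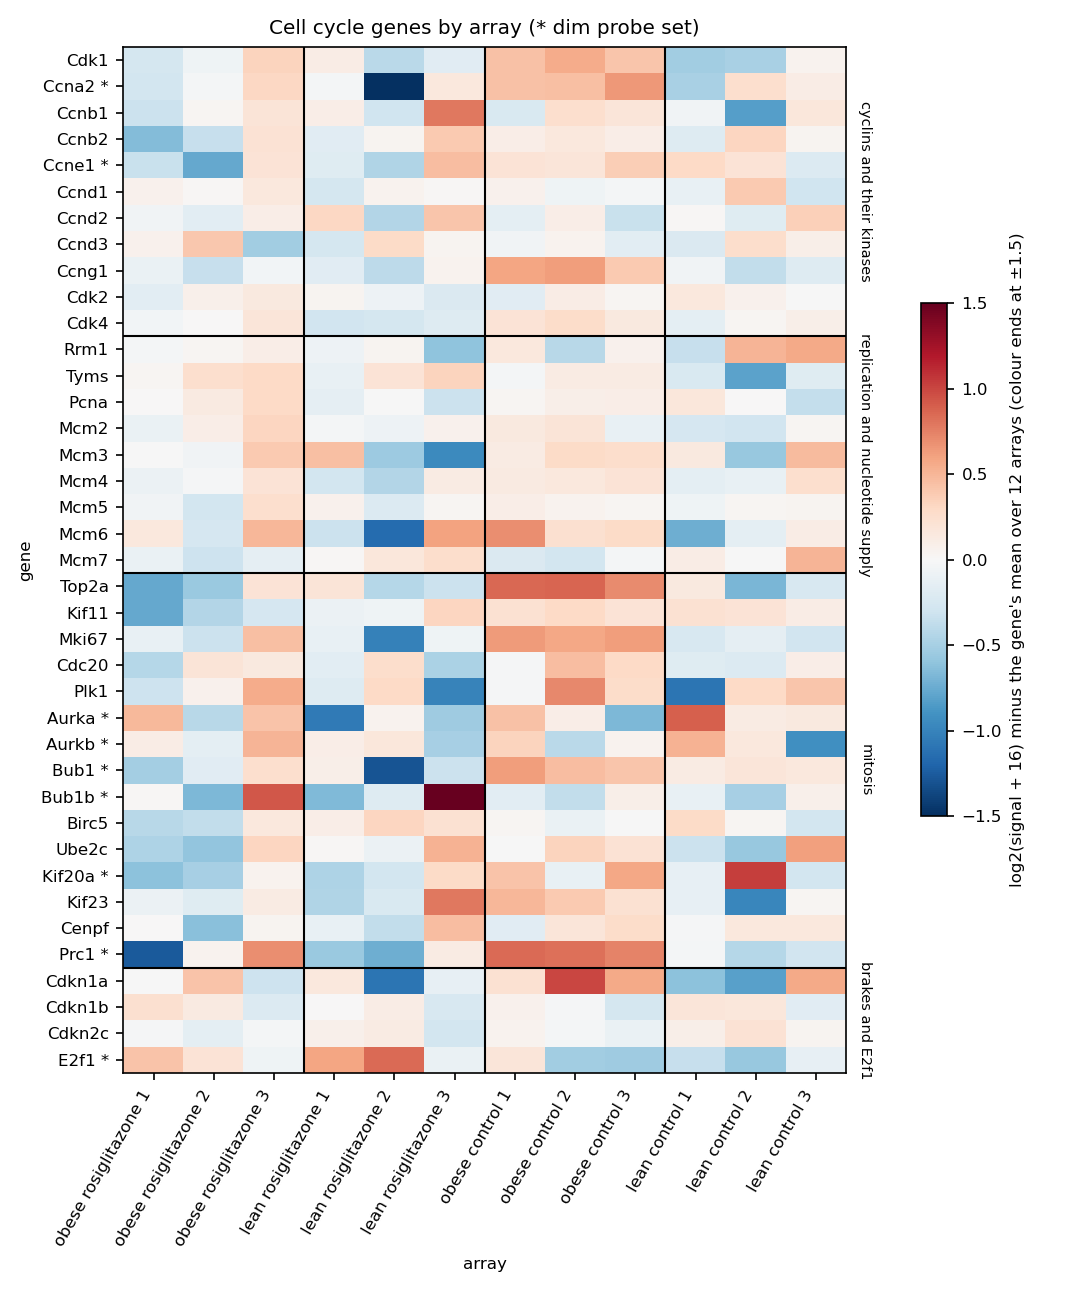
Signal of the 39 genes (rows, by role) on each of the 12 arrays (columns), as log2(signal + 16) minus the gene's mean over the arrays. Top2a, Mki67, Cdk1, Ccng1, Bub1, Prc1 and Ccna2 were higher on all 3 arrays of obese rats on control diet than on the other 9; asterisks mark the 9 dim genes.

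Obese rats on control diet had more Ccng1 than lean rats on control diet, and it was the single member to pass the test there. Ccng1, which encodes cyclin G1, read 2604, 2195 and 2704 in obese rats on rosiglitazone and 2468, 2125 and 2890 in lean rats on rosiglitazone (signal, arbitrary units). It read 4210, 4333 and 3656 in obese rats on control diet, against 2696, 2154 and 2440 in lean rats on control diet. All 3 obese rats on control diet thus lay above the other 9 rats, which overlapped each other. The mean was 4066 ± 361 in obese and 2429.9 ± 271 in lean rats on control diet (SD, n = 3 each), a log2 change of 0.74 (SE 0.13, limma adjusted p = 0.00808), or 1.67-fold. The adjusted p lay between 0.00465 and 0.399 over 25 other settings, and 22 of them kept the call. The call was lost without trend and robust moderation (adjusted p = 0.0640) and within either spike-in class, where the log2 change was 0.80 in the higher and 0.70 in the lower class. Over all probe sets 693 of 31042 (2.23%) were called in this comparison, so 1 of 39 is close to the background.

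Genes of mitosis and its kinase gave the next smallest p-values on control diet without passing the test. Top2a, the topoisomerase that untangles sister DNA, read 99.3, 118 and 209 in obese rats on rosiglitazone and 208, 130 and 141 in lean rats on rosiglitazone. It read 341, 343 and 305 in obese rats on control diet, against 202, 106 and 151 in lean rats on control diet. The obese rats on control diet did not overlap with any other group, while the other groups overlapped. The log2 difference on control diet was 1.07 (SE 0.28, adjusted p = 0.0654), and it passed when dim probe sets were left out (adjusted p = 0.0416) or the third obese rat on rosiglitazone was (adjusted p = 0.0442). A second Top2a probe set gave 0.67 (adjusted p = 0.438), and its obese rats on control diet overlapped the other groups.

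Mki67, whose protein coats chromosomes in mitosis and marks dividing cells, showed the same order of rats. It read 132, 112 and 203 in obese rats on rosiglitazone and 132, 63.3 and 137 in lean rats on rosiglitazone. The values were 233, 223 and 230.2 in obese rats on control diet, against 119, 130.0 and 115 in lean rats on control diet. The gap between obese and lean rats on control diet was 0.83 log2 (SE 0.27, adjusted p = 0.151), and both groups were tight. Cdk1, the kinase that drives entry into mitosis, read 142, 166 and 223 in obese rats on rosiglitazone and 188, 127 and 152 in lean rats on rosiglitazone. Its signals were 242, 263 and 237 in obese rats on control diet, against 117, 119 and 181 in lean rats on control diet, a log2 difference of 0.79 (SE 0.23, adjusted p = 0.0947). Again the obese rats on control diet were the 3 highest of the 12. Prc1, which bundles microtubules of the central spindle and is dim on this array, read 37.4, 117 and 191 in obese rats on rosiglitazone and 71.2, 60.9 and 123 in lean rats on rosiglitazone. Obese rats on control diet had 215, 212 and 198, against 109, 79.3 and 88.7 in lean rats on control diet, a log2 difference of 1.06 (SE 0.40, adjusted p = 0.222). Here the third obese rat on rosiglitazone came close to the obese rats on control diet.

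**Figure D2:**
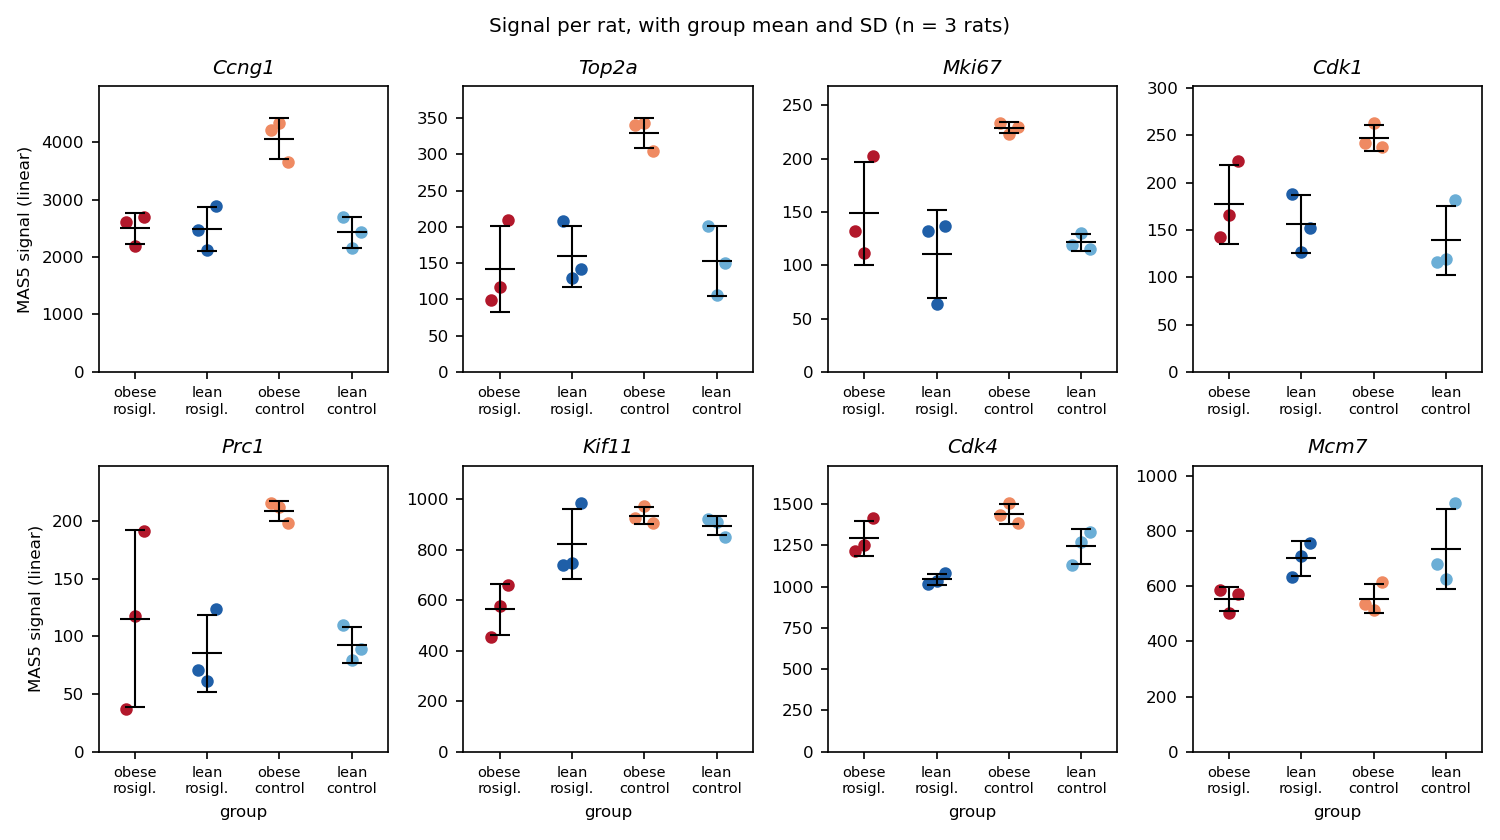
MAS5 signal (linear scale, brightest probe set) of 8 genes in each rat (points), with the group mean and SD (bars, n = 3 rats). In Ccng1, Top2a, Mki67, Cdk1 and Prc1 the 3 obese rats on control diet lie above all others, in Kif11 the 3 obese rats on rosiglitazone lie below all others, in Cdk4 the obese lie above the lean rats of the same diet, and in Mcm7 below them.

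On control diet 11 genes had every obese rat above every lean rat, and 1 gene had every obese rat below every lean rat. Over all probe sets such non-overlap was found for 11.5% upward and 10.2% downward. The 11 were Top2a, Mki67, Cdk1, Ccna2, Ccng1, Cdk4, Bub1, Tyms, Mcm6, Kif23 and Prc1, and the 1 below was Mcm7. For 7 of the 39 genes (17.9%) all 3 obese rats on control diet lay above the other 9 rats, which 369 of 31042 probe sets (1.19%) did. The 7 were Top2a, Mki67, Cdk1, Ccna2, Ccng1, Bub1 and Prc1. This pattern was singled out after the values were seen and carries no test. Leaving out any 1 array gave 7 or 8 genes, against 1.25% to 3.03% of all probe sets. Ccna2 and Bub1, a mitotic cyclin and a kinase of the spindle checkpoint, are dim, and their highest array read 73.1 and 90.3. Of the 6 genes among these 7 with a promoter window, Top2a, Mki67, Cdk1 and Prc1 held TTTGAA, and these 4 and Ccng1 held CCAAT.

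Marker genes of other cells were set beside this pattern. The summed signal of 9 fat cell markers, 1 of them dim, ran from 6572 to 7841 in obese rats on rosiglitazone and from 12960 to 23910 in lean rats on rosiglitazone. It ran from 2964 to 3500 in obese rats on control diet, against 5419 to 10820 in lean rats on control diet, so it was lowest where the 7 genes were highest. The summed signal of 10 leukocyte and macrophage markers, with Itgam and Cd163 dim and none listed at 0, ran from 9246 to 10770 in obese rats on rosiglitazone and from 10620 to 11880 in lean rats on rosiglitazone. It ran from 10840 to 14410 in obese rats on control diet, against 9495 to 12410 in lean rats on control diet. Obese rats on control diet therefore held more of it than obese rats on rosiglitazone and overlapped both lean groups. Cd74 and Lyz2 made up most of this sum: Cd74 averaged 4805 in obese and 5562 in lean rats on control diet, and Lyz2 4916 in obese and 3155 in lean rats on control diet. Cd53, a membrane protein of leukocytes, was the 1 marker of the 10 with all 3 obese rats on control diet above the other 9 rats, as in the 7 genes. It averaged 512 ± 26.4 in obese and 389 ± 70.4 in lean rats on rosiglitazone, and 636 ± 125 in obese and 441 ± 86.8 in lean rats on control diet. Of 8 lymphocyte markers measured, 4 were dim, and their sums overlapped between all groups. The part of these cells in the result was not tested.

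By role, 12 of 15 mitosis genes had a positive log2 difference between obese and lean rats on control diet, with a median of 0.27, and 0 passed limma's test. Among 11 cyclins and kinases 7 were positive with a median of 0.16, and Ccng1 passed. Among 9 replication and nucleotide genes 7 were positive with a median of 0.16, and 0 passed. The 4 brakes and E2f1 had a median of -0.04 and 0 calls. The median over all 39 was 0.16, against 0.01 over all probe sets, and 10 genes reached an unadjusted p under 0.05 (14.8% of all probe sets did). The 4 roles had 4, 3, 2 and 1 of these genes, in the order just given.

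**Figure D3:**
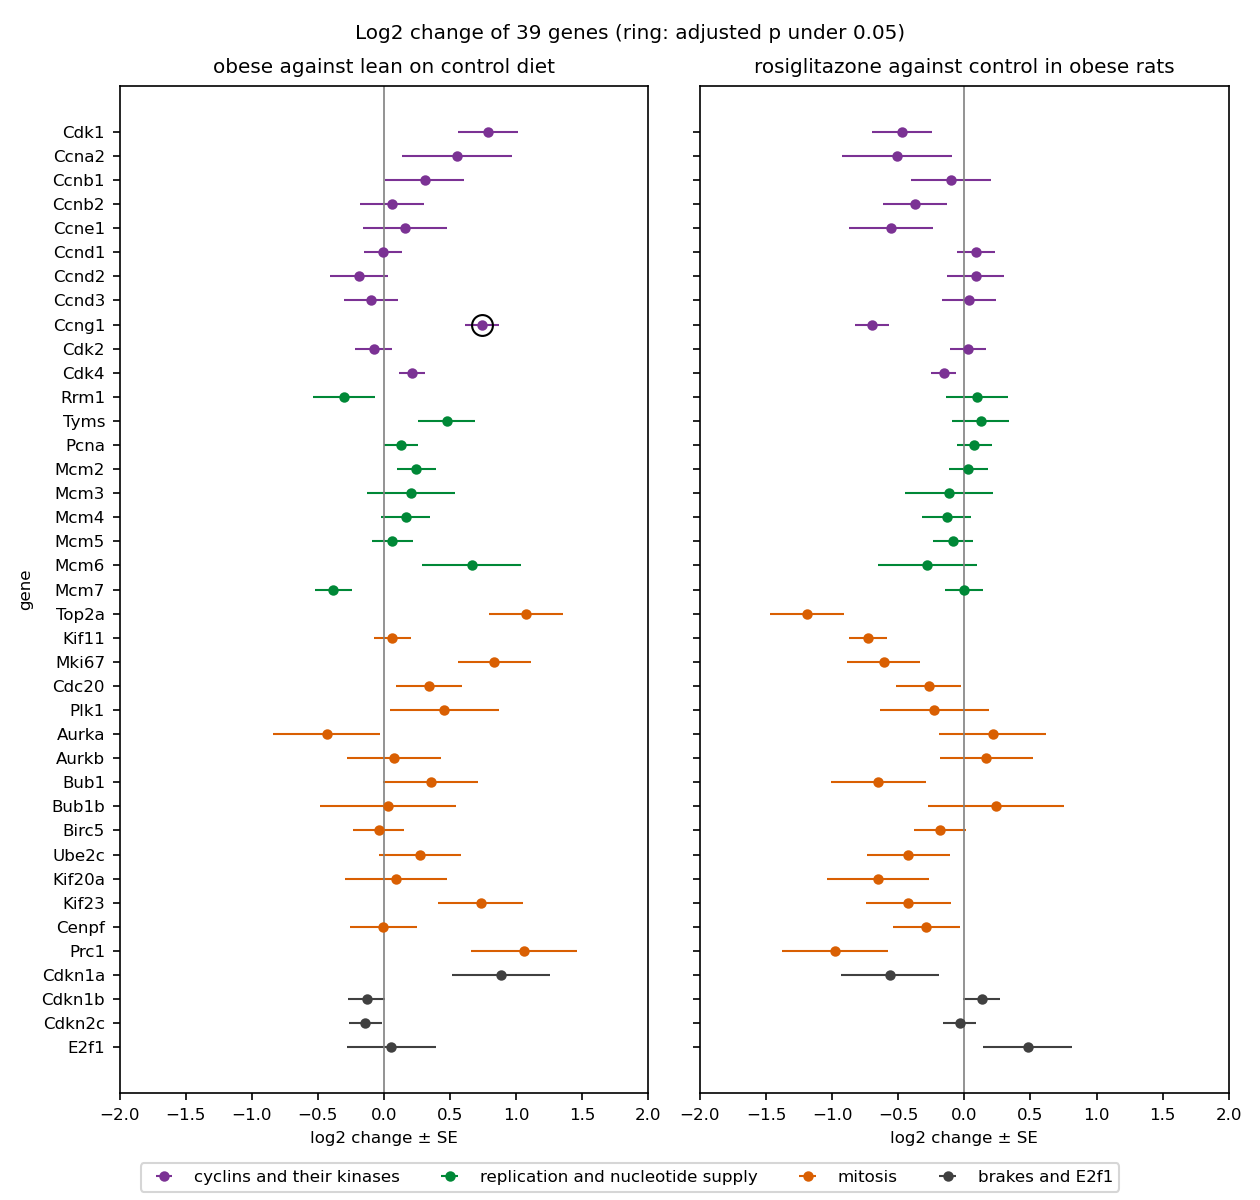
Log2 change with its SE for the 39 genes, coloured by role: obese against lean rats on control diet (left) and rosiglitazone against control diet in obese rats (right). Most mitosis genes lie right of 0 in the first panel and left of 0 in the second, and the ring marks Ccng1, the single call; both panels use the same 3 obese rats on control diet.

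Over both diets together 3 members passed the test, and each differed by a modest amount. Ccng1 rose in obese rats by 0.38 log2 (SE 0.09, adjusted p = 0.0192), a value that averages 0.01 on rosiglitazone and 0.74 on control diet. Cdk4, the kinase partner of the D cyclins, read 1214, 1251 and 1416 in obese rats on rosiglitazone, against 1019, 1033 and 1085 in lean rats on rosiglitazone. On control diet it read 1434, 1507 and 1385 in obese and 1129, 1273 and 1330 in lean rats. The obese rats lay above the lean rats on either diet, with a log2 change of 0.26 (SE 0.07, adjusted p = 0.0346), or 1.20-fold. Mcm7, a subunit of the ring-shaped helicase that opens DNA for replication, moved the other way. It read 586, 503 and 571 in obese rats on rosiglitazone, against 633, 711 and 758 in lean rats on rosiglitazone. The control diet gave 536, 515 and 615 in obese and 680.4, 626 and 901 in lean rats. Every obese rat lay below every lean rat of the same diet, and the log2 change was -0.36 (SE 0.10, adjusted p = 0.0450).

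These 3 calls stood beside 2530 of all 31042 probe sets (8.15%), so their share, 3 of 39, was near the background, and 10 members reached an unadjusted p under 0.05 (22% of all probe sets did). Over 23 other settings the adjusted p ran from 0.00981 to 0.278 for Ccng1, from 0.0218 to 0.364 for Cdk4 and from 0.0190 to 0.110 for Mcm7, and 18, 10 and 10 settings kept the call. Ccng1 lost it without the third obese rat on rosiglitazone (adjusted p = 0.0536) or the second obese rat on control diet (adjusted p = 0.0556). Cdk4 kept it when the first obese rat on rosiglitazone, the third lean rat on rosiglitazone or the third lean rat on control diet was left out, and lost it without any 1 of the other 9 rats (adjusted p between 0.0531 and 0.0917). Mcm7 kept it without the first lean rat on rosiglitazone or the second lean rat on control diet, and lost it without any 1 of the other 10 (adjusted p between 0.0539 and 0.110). With a term for the spike-in class Cdk4 lost it (adjusted p = 0.131) and Ccng1 did too (adjusted p = 0.0832), while Mcm7 kept it (adjusted p = 0.0190). With the Gapdh ratio as a term Mcm7 lost it (adjusted p = 0.103) and the other 2 kept it, and with arrays centred on their median Cdk4 lost it (adjusted p = 0.0912). Non-overlap on both diets was seen for Cdk4 upward and Mcm7 downward, against 3.68% and 3.34% of all probe sets. The other Mcm genes of the helicase ring, Mcm2 to Mcm6, had log2 differences between 0.04 and 0.54 over both diets, and none of them passed. Tubule markers moved with body type as well: the sums of 10 proximal tubule markers ran from 61060 to 66470 in obese and from 80550 to 96070 in lean rats on rosiglitazone, and from 64950 to 70940 in obese and from 76870 to 95440 in lean rats on control diet. Sums of 7 collecting duct and distal tubule markers ran from 33800 to 37290 in obese and from 28360 to 29480 in lean rats on rosiglitazone, and from 34290 to 38010 in obese and from 22980 to 30050 in lean rats on control diet. Over both diets 9 of the 10 proximal tubule markers were lower in obese rats, and Slc5a2 went the other way. Its log2 difference was 2.56 (limma adjusted p = 0.0332), and it kept the call in 10 of 23 other settings. Slc5a2 averaged 709 ± 496 in obese and 259 ± 353 in lean rats on rosiglitazone. On control diet it averaged 1208 ± 474 in obese and 197 ± 264 in lean rats, so its lean rats were widely spread on either diet. Of the 10 proximal tubule markers 7 were called lower and 1 higher over both diets, against 8.15% of all probe sets called. All 7 collecting duct and distal tubule markers were higher in obese rats over both diets, and 4 were called (Aqp3, Avpr2, Scnn1b and Slc12a3). Aqp2, the brightest of these 7, averaged 12320 in obese and 11240 in lean rats on rosiglitazone. On control diet Aqp2 averaged 11920 in obese and 12050 in lean rats. The part of the tubule markers in the 3 calls was not tested.

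On rosiglitazone alone 0 members passed limma's test between obese and lean rats, where 725 probe sets (2.34%) did, and 5 members reached an unadjusted p under 0.05 (15.5% of all probe sets did). Kif11, the spindle motor that pushes the poles apart, came nearest. It read 456, 575 and 659.8 in obese rats on rosiglitazone, against 738, 749 and 985 in lean rats on rosiglitazone. On control diet it read 927, 972 and 907 in obese and 923, 909 and 852 in lean rats. All 3 obese rats on rosiglitazone lay below the other 9, a position that 0.97% of all probe sets shared and no other member did. A second Kif11 probe set, not dim, did not share it: it read 57.1, 208 and 174 in obese rats on rosiglitazone, against 208, 142 and 48.0 in lean rats on rosiglitazone, and these overlapped. The log2 difference to lean rats on rosiglitazone was -0.54 (SE 0.14, adjusted p = 0.0672) on the brighter probe set and 0.15 (SE 0.43, adjusted p = 0.907) on the second, so the direction turned. Without dim probe sets the adjusted p was 0.0421, the lowest of 24 settings, and the highest was 0.742. Cdk4 followed with 0.30 (adjusted p = 0.134) and Mcm7 with -0.33 (adjusted p = 0.280). Non-overlap was seen upward in Cdk4 and Pcna and downward in Kif11 and Mcm7, 2 of 39 each way, against 9.53% and 9.84% of all probe sets.

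Rosiglitazone against control diet gave 0 calls among the members in obese rats, where 7 of 31042 probe sets (0.0226%) were called, and 5 members reached an unadjusted p under 0.05 (4.23% of all probe sets did). This comparison uses the same obese rats on control diet as the comparison of body types on that diet, so its values for the members are not a second observation. The smallest p-values were those of Ccng1 (log2 difference -0.70, SE 0.13, adjusted p = 0.113), Kif11 (-0.73, SE 0.14, adjusted p = 0.159) and Top2a (-1.19, SE 0.28, adjusted p = 0.408). Over 24 other settings the lowest adjusted p was 0.0651 for Ccng1, 0.0997 for Kif11 and 0.228 for Top2a. The second Kif11 probe set gave -0.96 and the second Top2a probe set -0.38. In 9 of 39 genes every obese rat on rosiglitazone lay below every obese rat on control diet, against 5.97% of all probe sets, and in 0 genes above (4.96% of all probe sets). The 9 were Top2a, Kif11, Mki67, Cdk1, Ccna2, Ccng1, Bub1, Kif23 and Prc1. Without the third obese rat on rosiglitazone the count was 19, against 12.5% of all probe sets. Of 15 mitosis genes 12 had a negative log2 difference, with a median of -0.42, and the median over all 39 was -0.16, against -0.01 over all probe sets.

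The sums of fat cell, leukocyte and endothelial markers did not overlap in the same contrast, with narrow gaps for leukocytes and endothelium. Those of lymphocytes, red blood cell precursors, proximal tubule, collecting duct and distal tubule, and podocytes overlapped between obese rats on rosiglitazone and obese rats on control diet. Leukocyte sums reached 10770 in obese rats on rosiglitazone and began at 10840 in obese rats on control diet. Taken singly, 3 of 9 fat cell and 2 of 6 endothelial markers were higher on rosiglitazone without overlap (4.96% of all probe sets). Of the 10 leukocyte markers 2 were lower without overlap (5.97% of all probe sets). Beside the fat cell and leukocyte sums given above, 6 endothelial markers summed to between 6231 and 6739 in obese rats on rosiglitazone and to between 3428 and 6108 in obese rats on control diet. The part of these cells in the values of the cell cycle genes was not tested.

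In lean rats rosiglitazone gave 0 member calls, with 1 probe set called in all (0.00322%), and 4 members reached an unadjusted p under 0.05 (5.37% of all probe sets did). Cdk4 had a log2 difference of -0.24 (SE 0.10, adjusted p = 0.899), and its lean rats on rosiglitazone were the 3 lowest of the 12, as for 0.944% of all probe sets. Tyms, which makes thymidylate for DNA, read 169, 199.6 and 207 in obese rats on rosiglitazone and 152, 193 and 212 in lean rats on rosiglitazone. It read 161, 182 and 181 in obese rats on control diet, against 139, 87.7 and 144 in lean rats on control diet, which were the 3 lowest, as for 0.734% of all probe sets. E2f1, the transcription factor that turns on replication genes and dim here, read 82.3, 68.7 and 54 in obese rats on rosiglitazone and 94.4, 117 and 52.4 in lean rats on rosiglitazone. Its signals were 67, 35.2 and 34.7 in obese rats on control diet, against 41.5, 33.5 and 51.5 in lean rats on control diet, and all lay within the range of the Bacillus controls. The log2 differences in lean rats were 0.54 for Tyms (adjusted p = 0.899) and 0.79 for E2f1 (adjusted p = 0.917). Non-overlap in lean rats was found upward in Tyms and E2f1 (4.49% of all probe sets) and downward in Cdk4, Aurka and Bub1 (3.9%).

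Over both body types 0 members passed for rosiglitazone, where 7 probe sets (0.0226%) did, and 7 members reached an unadjusted p under 0.05 (4.92% of all probe sets did). Kif11 had a log2 difference of -0.43 (adjusted p = 0.429), Ccng1 of -0.33 (adjusted p = 0.663) and Cdk4 of -0.20 (adjusted p = 0.857). Bub1 was the single gene with every rosiglitazone rat below every control rat of its body type, against 0.3% of all probe sets, but it is dim and its signals, 12.1 to 90.3, lie within the range of the Bacillus controls. The difference of the rosiglitazone effect between body types, obese minus lean, had 0 calls among the members and 0 over all probe sets (0%), and 3 members reached an unadjusted p under 0.05 (4.32% of all probe sets did). These were Ccng1 (-0.73, SE 0.18, adjusted p = 0.787), Top2a (-1.26, SE 0.40, adjusted p = 0.995) and Kif11 (-0.60, SE 0.20, adjusted p = 0.995). The second Kif11 probe set gave 0.18 (SE 0.61, adjusted p = 0.996), with -0.96 in obese and -1.14 in lean rats. The test of this difference therefore did not separate the drug's effect in obese rats from that in lean rats for any member.

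Several members that carry the cycle's entry and its brakes gave values that overlapped between obese and lean rats on control diet. Ccnd1, which encodes cyclin D1, read 5608, 5398 and 5943 in obese rats on rosiglitazone and 4448, 5542 and 5418 in lean rats on rosiglitazone. Its signals were 5590.2, 5097 and 5234 in obese rats on control diet, against 4931, 7040.4 and 4346 in lean rats on control diet. The groups overlapped on either diet, and the 3 Ccnd1 probe sets gave log2 differences from -0.15 to -0.01 between obese and lean rats on control diet. Pcna, the sliding clamp of the replication fork, read 2054, 2243 and 2511 in obese rats on rosiglitazone, against 1857, 2041 and 1636 in lean rats on rosiglitazone. It read 2078, 2166 and 2187 in obese rats on control diet, against 2302, 2049 and 1593 in lean rats on control diet, where the groups overlapped, while on rosiglitazone every obese rat lay above every lean rat (adjusted p = 0.282). Cdkn1a, which encodes the kinase inhibitor p21, read 369, 506 and 297 in obese rats on rosiglitazone and 415, 165 and 339 in lean rats on rosiglitazone. It read 439, 761 and 558 in obese rats on control diet, against 237, 205 and 559 in lean rats on control diet. The third lean rat on control diet was level with the third obese rat on that diet, and the log2 difference of 0.89 (SE 0.37) had an adjusted p of 0.275. A second, dim Cdkn1a probe set gave -0.10.

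The other members are given by their log2 difference between obese and lean rats on control diet, none of which passed. Kif23 and Mcm6, a motor of the central spindle and a helicase subunit, had 0.73 and 0.66. Plk1 and Cdc20, a mitotic kinase and the activator of the anaphase-promoting complex, had 0.46 and 0.34, and the 5 Cdc20 probe sets ranged from -0.40 to 0.89. The B cyclins had 0.31 (Ccnb1) and 0.06 (Ccnb2), and Ube2c, the ubiquitin-conjugating enzyme of that complex, had 0.27. Birc5 (survivin) and Aurkb of the chromosomal passenger complex had -0.04 and 0.08. Aurka, the spindle pole kinase, had -0.44, the kinetochore protein Cenpf 0.00, the checkpoint kinase Bub1b 0.03 and the motor Kif20a 0.09, and all but Cenpf are dim. Ccne1, also dim, had 0.16, its kinase Cdk2 -0.08, Ccnd2 -0.19 and Ccnd3 -0.10. The helicase subunits Mcm2, Mcm3, Mcm4 and Mcm5 had 0.25, 0.20, 0.16 and 0.06. Rrm1, the large subunit of ribonucleotide reductase, had -0.30, and the inhibitors Cdkn1b (p27) and Cdkn2c (p18) had -0.13 and -0.14. Most of these values were positive, and the negative ones included those of Ccnd2, Ccnd3, Rrm1, Aurka and the inhibitors.

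**Figure D4:**
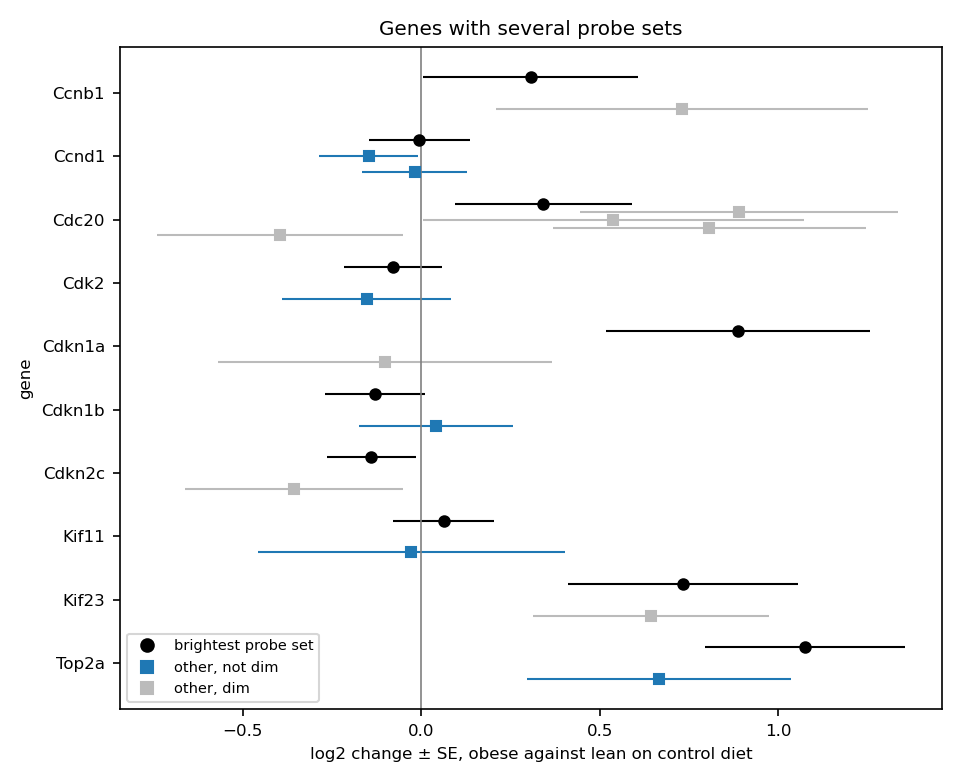
Log2 change with its SE between obese and lean rats on control diet for every probe set of the 10 genes with several (circle, the brightest probe set; square, another one, grey where dim). The probe sets of Cdkn1a, of Cdc20, of Kif11 and of Cdkn1b lie on both sides of 0, and both Top2a probe sets lie above it.

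Genes around the set were counted from lists of related pathways. Of 58 other mitosis genes measured, 2 rose and 1 fell in obese rats on control diet, against 2.23% of all probe sets called, and their median log2 difference was 0.18. Smc2, a subunit of condensin, which compacts chromosomes, averaged 335 ± 26.4 in obese and 196 ± 16 in lean rats on control diet (log2 0.73, adjusted p = 0.0326; 0.0172 to 0.546 over 25 settings). Melk, a mitotic kinase, averaged 861 ± 77.3 in obese and 1389 ± 209 in lean rats on control diet (log2 -0.67, adjusted p = 0.0414; 0.0228 to 0.519 over 25 settings). Kntc1, a kinetochore protein, rose as well, but its signals of 47.6 ± 12.3 in obese and 9.13 ± 0.282 in lean rats on control diet lie within the range of the Bacillus controls. Over both diets 4 of the 58 rose (Smc2, Cdc25b, Spc24 and Kntc1) and Melk fell, against 8.15% of all probe sets called. Of these, Spc24 kept its call in 7 of 22 other settings (adjusted p up to 0.258) and Kntc1 in 6 of 22 (up to 0.190). The Spc24 means of lean rats, 49.3 ± 16.5 on rosiglitazone and 54.3 ± 51.7 on control diet, lie within the range of the Bacillus controls. Cdc25b, the phosphatase that activates Cdk1, averaged 246 ± 50.9 in obese and 55.2 ± 31.8 in lean rats on rosiglitazone (log2 1.96, adjusted p = 0.00700; 0.00177 to 0.0390 over 24 settings). The mean of the lean rats on rosiglitazone lies within the range of the Bacillus controls, so the size of this difference is uncertain. In obese rats on control diet it averaged 198 ± 38.9, against 176 ± 64.7 in lean rats on control diet.

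Over all probe sets 2.23% were called on control diet, where 14.8% reached an unadjusted p under 0.05, and 8.15% were called over both diets. Among 44 other DNA replication genes 0 were called by limma on control diet (7 at an unadjusted p under 0.05), and over both diets Prim1 (0.35) rose and Dut (-0.24) fell. Prim1 kept its call in 15 of 23 other settings (adjusted p up to 0.220) and Dut in 8 of 23 (up to 0.402). Other cyclins and cyclin-dependent kinases had 1 call in 27, Cdk14 over both diets (0.41, kept in 14 of 23 other settings, adjusted p up to 0.734), and the 15 E2F and pocket protein genes had 0 by limma in any comparison, with 1 at an unadjusted p under 0.05 on control diet. Of 23 growth and tubular repair genes, Ccn1 (log2 2.03, adjusted p = 0.000449) and Spp1 (0.95, adjusted p = 0.0182), a matricellular growth cue and osteopontin, rose in obese rats on control diet, and kept the call in 23 and 16 of 25 other settings. Over both diets 6 of the 23 were called, 5 higher and 1 lower, against 8.15% of all probe sets. Those of smallest p were Ccn1 (1.73, adjusted p = 3.17e-05), Spp1 (0.79, adjusted p = 0.00254), Ccn2 (0.42, adjusted p = 0.0126) and Havcr1, which encodes the tubular injury marker Kim-1 (2.15, adjusted p = 0.0133). Ccn2 averaged 2656 ± 434 in obese and 2643 ± 288 in lean rats on control diet, so its difference lay on rosiglitazone. There it averaged 3479 ± 160 in obese and 1945 ± 262 in lean rats (log2 0.84, limma adjusted p = 0.00438), and Ccn1 was called there too (1.44, limma adjusted p = 0.00584). Havcr1 averaged 1183 ± 1237 in obese and 152 ± 58.8 in lean rats on control diet, so its obese rats were widely spread. The 1 that fell over both diets was Lcn2, another injury marker (-0.86, adjusted p = 0.0318), which kept its call in 8 of 22 other settings and is named here after its value was seen. Lcn2 is dim, and its means in obese rats lie within the range of the Bacillus controls (82.2 ± 27.8 on rosiglitazone and 111 ± 5.41 on control diet). The 28 p53 targets and other brakes had 0 calls by limma on control diet (6 at an unadjusted p under 0.05), with 21 positive and a median of 0.14, and over both diets Btg1 (0.22) rose and Mdm2 (-0.23) fell. Btg1 kept its call in 11 of 23 other settings (adjusted p up to 0.199) and Mdm2 in 5 of 23 (up to 0.867). Over both diets, calls in the replication, cyclin and p53 lists were no more frequent than over all probe sets. Rosiglitazone gave 0 calls in any of these 6 lists in lean rats, in obese rats or over both body types, where 0 to 6 genes of a list reached an unadjusted p under 0.05. Of all probe sets 5.37%, 4.23% and 4.92% reached it in these comparisons, in that order.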

How the data were processed

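Kidney RNA of 12 rats was measured on 1-colour Affymetrix arrays. The deposited values are intensity on a linear scale, MAS5 signals per the submitters' processing notes, with the same trimmed mean on every array. Its version and other settings are not stated there.

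Without 57 Affymetrix controls the table had 31042 probe sets (20826 with 1 gene symbol, 436 with several, 9780 unnamed here). Of the gene IDs, 20758 were found in the RefSeq table of GRCr8, and 0 symbols changed. Log2(signal + 16) of all probe sets entered 1 limma model (limma 3.58.1, statmod 1.5.0, R 4.3.3) with 4 group means and 8 residual degrees of freedom, eBayes with trend and robust settings, and Benjamini-Hochberg adjustment over all probe sets in each of 7 comparisons. Calls were made at an adjusted p under 0.05, without a filter on low signal. SEs and changes are on the log2(signal + 16) scale, which understates changes of low genes. P-values measure the spread between rats. On simulated data for obese against lean rats on control diet, over 31042 probe sets, 34% of 50 probe sets changed 1.5-fold were recovered, 74% at 2-fold and 96% at 3-fold, with 14 false calls. The changed probe sets were all drawn from those with a mean log2(signal + 16) above 7.32, so recovery of dim probe sets was not tested.

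Values on every array are given for 7 listed genes (Mki67, Top2a, Cdk1, Ccnd1, Cdkn1a, Pcna and Kif11), for called members and for the 3 members of smallest p in comparisons without a call. Prc1 was added after its values were seen. Members and lists were chosen with earlier results of these data known. Alternatives covered the offset, a filter, scaling, moderation, the arrays in the fit, probe set choice, replicate number as a block, the spike-in class, the Gapdh ratio and leaving out each rat. Same-numbered rats deviated together weakly if at all: their median correlation was 0.0697, against -0.0234 for other pairs. Of the 18 same-numbered pairs 4 had a correlation over 0.1 (range -0.179 to 0.182). The numbers were not used as pairs in the main fit, and whether same-numbered rats were handled together was not tested.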

Additional observations from a re-analysis of the deposited data

How the results depend on the processing

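For obese against lean rats on control diet the count of called members was 1, and it was 2 with dim probe sets left out (Ccng1 and Top2a), 2 with only the groups compared in the fit (Ccng1 and Prc1), 0 without trend and robust moderation, 0 within the higher and 0 within the lower spike-in class, and 1 to 2 when 1 rat was left out. On rosiglitazone it was 0, and 1 (Kif11) with dim probe sets left out. Over both diets it was 3, and 0 without trend and robust moderation, 1 with a term for the spike-in class (Mcm7), 2 with the Gapdh ratio as a term (Ccng1 and Cdk4), 2 with arrays centred on their median (Ccng1 and Mcm7), 0 within the lower class, and 0 to 4 when 1 rat was left out. For rosiglitazone against control, in either body type or both, and for the difference of its effect between body types, 0 members were called in every alternative run. Replicate number as a block (the replicate block) kept 1 call on control diet and 3 over both diets, for the same genes, and changed no other call.

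Over all probe sets the count ranged with the setting from 16 to 882 on control diet, from 233 to 932 on rosiglitazone, from 717 to 2665 over both diets, and for rosiglitazone from 0 to 6 in lean rats, 0 to 22 in obese rats and 0 to 17 over both. The mean over a gene's probe sets tests genes, so its counts are not among these. The members' median log2 difference kept its sign on control diet (0.11 to 0.18) and for rosiglitazone in obese rats (-0.26 to -0.07), and ran from -0.05 to 0.13 for obese against lean rats on rosiglitazone and from -0.10 to 0.04 for rosiglitazone in lean rats. With 1 array left out, the number of genes with every obese rat on rosiglitazone below every obese rat on control diet was 9 to 19, a choice added after seeing the data. A fit within the higher spike-in class had no obese rat on rosiglitazone, and the groups compared are all 12 arrays for comparisons over both diets or body types. Low signal limits the 9 dim genes, and 3 rats per group limit all.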

Other observations

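Among p53 targets and other brakes, 7 of 28 measured genes had every obese rat on rosiglitazone below every obese rat on control diet, against 5.97% of all probe sets, and 0 passed limma's test in that comparison (4 at an unadjusted p under 0.05). In 2 of the 28, Cdkn1c and Ppm1d, every obese rat on rosiglitazone lay above every obese rat on control diet (4.96% of all probe sets). Of the 7, Cdkn2b and Cdkn3 are dim, and Xpc differed by -0.05 log2. Phlda3, a p53 target that restrains Akt, averaged 323 ± 56.7 in obese rats on rosiglitazone and 334 ± 58.5 in lean rats on rosiglitazone. It averaged 457 ± 20.7 in obese rats on control diet, against 336 ± 32.5 in lean rats on control diet (SD, n = 3 each). Cdkn2d, which encodes the kinase inhibitor p19, averaged 411 ± 43.0 in obese rats on rosiglitazone and 377 ± 33.8 in lean rats on rosiglitazone. It averaged 481 ± 45.1 in obese rats on control diet, against 339 ± 40.6 in lean rats on control diet. These were the 2 of the 28 (7.14%) with all 3 obese rats on control diet above the other 9 rats, against 1.19% of all probe sets. Ccng1 shared this position, while neither probe set of Cdkn1a did. Phlda3 and Cdkn2d were chosen for this position after their values were seen. Neither passed limma's test on control diet (adjusted p = 0.226 for Phlda3 and 0.0983 for Cdkn2d). Mdm2, the ubiquitin ligase that p53 induces, was 1 of the 7 but did not share the position above the other 9 rats. It averaged 1146 ± 48.0 in obese rats on rosiglitazone and 1369 ± 97.8 in lean rats on rosiglitazone. Its means were 1279 ± 62.5 in obese rats on control diet, against 1486 ± 39.8 in lean rats on control diet.

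Among other mitosis genes, all 3 obese rats on control diet lay above the other 9 for Ect2, a regulator of cytokinesis, and for Kntc1, 2 of 58 (3.45%), against 1.19% of all probe sets. Ect2 averaged 148 ± 30.8 in obese rats on rosiglitazone and 143 ± 33.2 in lean rats on rosiglitazone. It averaged 212 ± 21.0 in obese rats on control diet, against 152 ± 24.0 in lean rats on control diet (adjusted p = 0.389).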
